A study of Mus musculus with 17 samples.

Results

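The genes described here encode 10 receptors that signal through inhibitory G proteins of the Gi family and are known for damping pain signals: the opioid receptors Oprm1 (mu), Oprd1 (delta), Oprk1 (kappa) and Oprl1 (nociceptin), the somatostatin receptors Sstr2 and Sstr4, the neuropeptide Y receptors Npy1r and Npy2r, the cannabinoid receptor Cnr1 and the adenosine receptor Adora1. They were chosen by symbol, matched to Ensembl identifiers, and are 10 of the 78298 gene identifiers in the files. All 10 passed the filter on low counts, among 23972 genes tested. Their levels were measured by bulk RNA sequencing of mouse lumbar dorsal root ganglia (levels L4 to L6), which hold the cell bodies of sensory neurons next to the spinal cord. The 17 libraries form 4 groups: wild-type sham (5), wild-type with CCI (chronic constriction injury, in which ligatures are tied loosely around the sciatic nerve; 5), sham labelled knockout (KO) for Twik1, a potassium channel encoded by Kcnk1 (4), and CCI labelled KO (3). All carry the label day 30. The labels give no strain, sex, age, deleted part of Kcnk1 or pooling of animals. Nor do they tie each library to its own animal, and a p-value then reflects the spread among these libraries alone, which may be technical.

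Binding of a peptide or small ligand to these receptors activates Gi and Go proteins, which lower cyclic AMP, open inwardly rectifying potassium channels and close calcium channels at nerve endings. In sensory neurons this reduces transmitter release, and it is how opioids, cannabinoids and adenosine act at the first relay of pain. Receptor transcripts are made in the cell bodies of the ganglion, so their level there sets part of what can be shipped to both nerve endings.

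Libraries held 52523183 to 73584232 gene counts. All 12 sensory neuron markers stood above 1 CPM (counts per 1000000 of the scaled library) in every group, and their summed level was 11250 to 12790 CPM in sham wild-type, 12800 to 13020 in CCI wild-type, 12290 to 12900 in sham KO-labelled and 12860 to 13820 CPM in CCI KO-labelled libraries. The targeted gene Kcnk1 stood at 94.3 to 139.3 CPM in sham wild-type, 75.1 to 114.5 in sham KO-labelled, 106.2 to 121.0 in CCI wild-type and 78.3 to 89.0 CPM in CCI KO-labelled libraries. Its mean difference by label was −0.47 ± 0.09 on the log2 scale (SE, edgeR adjusted p = 0.00746), and −0.37 (edgeR adjusted p = 0.0342) without sham KO-labelled libraries 1 and 2. Kcnk1 counts were thus lower but not absent, the sham groups overlapped, and groups are named by their label. Sham KO-labelled libraries 1 and 2 stood apart: Atf3, a transcription factor switched on in injured neurons, stood there at 140.6 and 103.3 CPM, against 9.42 to 16.8 CPM in the other 7 sham libraries and 93.8 to 275.9 CPM after CCI. Sprr1a, a growth-linked gene also induced by nerve injury, stood there at 96.5 and 45.4 CPM, against 0.0183 to 1.51 CPM in the other 7 sham libraries and 87.8 to 370.6 CPM after CCI. Where the text gives the log2 difference of a receptor in a comparison that includes these libraries, it also gives the value without them. Not every receptor is given in each of these comparisons. Summed Schwann cell markers (8 genes) were 10520 to 15700 CPM in wild-type and 5117 to 8030 CPM in KO-labelled libraries, with 6 of 8 called lower by label in sham and 5 of 8 after CCI, and their part in the results was not tested. Each deposited table has a number in its name that is the same for all sham libraries and another for either CCI group, which no label explains. If that number stands for a batch, batch and group cannot be told apart in any comparison that involves CCI libraries. In bulk tissue, fewer cells of a type and less RNA per cell cannot be told apart either.

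Promoter sequence is shown for the 2 receptors that passed the test in a comparison, because the data bear on their transcript level. The table of RefSeq promoters (build GRCm38.p6) held 9 of the 10 genes, with 16 start sites, and Oprk1 was not among them. The 250 bases before each start were searched and placed on GRCm39 by their single exact match. For Sstr2 the stretch before the first annotated exon is printed, and for Npy1r 30 bases around its match, since its window lies within a first exon of another transcript in GENCODE M39. Both are on the plus strand. Capitals mark an AP-1 match (TGANTCA) or a cyclic AMP response element (CRE, TGACGTCA, which binds CREB and ATF family factors). The AP-1 pattern used allows any centre base, whereas the site of Jun and Fos family factors has C or G there. The Npy1r stretch lies at chr8:67149832-67149861 and that of Sstr2 at chr11:113509903-113510144.
Npy1r: tgcgccttgctTGAGTCAaggactagtggg
Sstr2: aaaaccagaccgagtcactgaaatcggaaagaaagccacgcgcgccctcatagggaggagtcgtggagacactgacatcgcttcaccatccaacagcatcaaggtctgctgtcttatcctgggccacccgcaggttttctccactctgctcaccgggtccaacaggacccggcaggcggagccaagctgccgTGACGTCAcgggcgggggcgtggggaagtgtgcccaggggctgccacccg

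The AP-1 match of Npy1r begins 231 bases before its start, and the CRE of Sstr2 begins 58 bases before its start. Both strands were searched. Of 32851 mouse promoter windows of the same length, 6.75% held an AP-1 match and 1.55% held a CRE. Among the other members, a start of Adora1 also matched the AP-1 pattern, but with A in the centre (TGAATCA), and 0 others held a CRE. The motif of STAT factors (TTCNNNGAA, in 7.02% of all windows) was in 0 of the 16 windows. The Sp motif (GGGCGG, in 32.7% of all windows) was found in 5 of the 16 windows, near the share of all windows. These belong to 5 of the 9 genes, with 2 copies in Sstr2, 1 of them in the stretch shown. A match describes these letters only, and no binding was measured.

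All 10 are protein-coding genes with the following positions on GRCm39. Oprm1 (ENSMUSG00000000766) lies on chromosome 10 from 6708506 to 6988198, and Oprd1 (ENSMUSG00000050511) on chromosome 4 from 131838037 to 131871842. Oprk1 (ENSMUSG00000025905) lies on chromosome 1 from 5658667 to 5676375, and Oprl1 (ENSMUSG00000027584) on chromosome 2 from 181356605 to 181363728. Sstr2 (ENSMUSG00000047904) lies on chromosome 11 from 113510145 to 113516862, and Sstr4 (ENSMUSG00000037014) on chromosome 2 from 148236836 to 148243025. Npy1r (ENSMUSG00000036437) lies on chromosome 8 from 67149364 to 67159731, and Npy2r (ENSMUSG00000028004) on chromosome 3 from 82444312 to 82455409. Cnr1 (ENSMUSG00000044288) lies on chromosome 4 from 33922982 to 33948836, and Adora1 (ENSMUSG00000042429) on chromosome 1 from 134126948 to 134163579.

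In resting wild-type ganglia the receptors spanned a wide range of levels. Per kilobase of exon, the scale used to compare genes, Adora1, the adenosine A1 receptor, led at 15.8 ± 1.39 CPM per kb (SD, n = 5), and its lowest library lay above the highest of every other receptor. Npy2r followed at 6.71 ± 0.857, Oprl1 at 5.01 ± 1.47 and Sstr2 at 4.79 ± 0.481 CPM per kb, and neighbours in this order overlapped. Cnr1 stood at 2.96 ± 0.401 and Npy1r at 2.14 ± 0.196 CPM per kb, with overlapping libraries. The classical opioid receptors were far lower, Oprd1 at 0.585 ± 0.125, Oprm1 at 0.333 ± 0.0701 and Oprk1 at 0.285 ± 0.0866 CPM per kb, again with overlapping neighbours. Sstr4 was lowest at 0.105 ± 0.0544 CPM per kb, below every library of Oprk1. Within the opioid family, Oprl1 made up 79.9 ± 4.55% of the summed level per kb, Oprd1 9.58 ± 1.87%, Oprm1 5.72 ± 2.04% and Oprk1 4.78 ± 1.88%. After CCI in wild type, Npy1r moved up in this order, behind Adora1 and Npy2r, at 5.11 ± 0.801 CPM per kb, with a range that overlapped Sstr2, and Oprl1 still held 82.6 ± 2.76% of the opioid family. These orders rest on the annotated exon length, which counts exons of all transcripts.

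**Figure D1:**
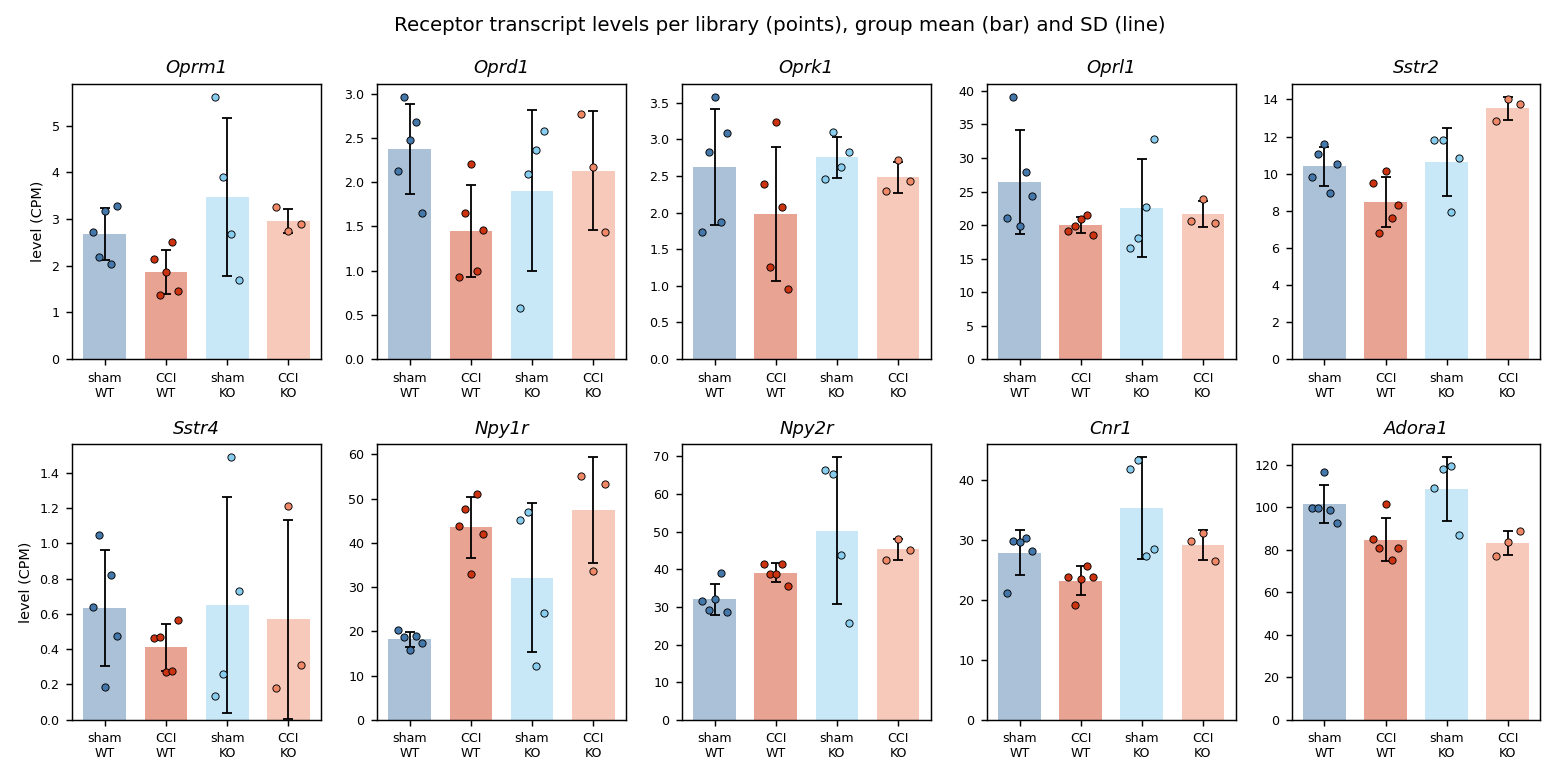
Levels of the 10 receptors in CPM (vertical axis, from 0, a separate scale per receptor) in the 4 groups, WT wild type and KO the knockout label. Points are libraries, bars group means and lines the SD. The 5 CCI wild-type libraries of Npy1r lie at 33.0 to 51.0 CPM, above all 5 sham wild-type libraries, and the 3 CCI KO-labelled libraries of Sstr2 lie at 12.8 to 14.01 CPM, above all other libraries.

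The first comparison asks what nerve injury does to these receptors in wild-type ganglia. Npy1r, the Y1 receptor for neuropeptide Y, rose, and was the 1 receptor of 10 that edgeR called. Its level was 20.2, 18.8, 15.9, 18.9 and 17.3 CPM in sham libraries 1 to 5, and 43.9, 47.6, 33.0, 51.0 and 42.0 CPM in CCI libraries 1 to 5. All CCI libraries lay above all sham libraries, and CCI library 3, which also had the lowest Atf3 of its group (108 CPM), was lowest. The rise was 1.26 ± 0.30 on the log2 scale (SE, 2.39-fold, edgeR quasi-likelihood test, adjusted p = 0.0348). The call was kept in 7 of the 17 fits that left out 1 library. It was lost, at adjusted p = 0.0504 to 0.0922, without any of the 5 sham wild-type libraries, CCI wild-type library 1, 2, 4 or 5, or CCI KO-labelled library 4, while the log2 change stayed between 1.19 and 1.34. Without sham KO-labelled libraries 1 and 2 together, which enter only through the shared estimate of the spread, it was 1.26 ± 0.19 (edgeR adjusted p = 0.00259).

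Of the 10 receptors, 1 was called higher and 0 lower, where 3.06% of all tested genes were called, 2.34% higher and 0.713% lower. Groups did not overlap for 1 receptor, against 4.84% of all genes. The other 9 had log2 changes of −0.71 to 0.29, 8 of them below 0, where 48.7% of all tested genes were above 0. The median over the 10 was −0.35, and −0.01 over all genes. At an unadjusted p under 0.05 there were 6 of 10 receptors, and 13.8% of all genes, but 5 of these 6 missed the adjusted threshold.

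Among the opioid receptors, Oprm1, the target of morphine, stood at 2.73, 2.18, 3.18, 2.03 and 3.27 CPM in sham wild-type libraries and at 2.14, 1.38, 1.86, 2.50 and 1.46 CPM in CCI wild-type libraries. The groups overlapped, and the difference of −0.52 ± 0.26 on the log2 scale did not pass (edgeR adjusted p = 0.395). Oprd1, the delta receptor, read 2.12, 2.97, 2.47, 2.68 and 1.65 CPM in sham and 0.930, 1.66, 2.21, 1.0 and 1.46 CPM after CCI, again with overlap (−0.71 ± 0.33, edgeR adjusted p = 0.315). Oprk1, the receptor for dynorphin, ranged from 1.74 to 3.58 CPM in sham and from 0.951 to 3.24 CPM after CCI (−0.41 ± 0.28, edgeR adjusted p = 0.598). Oprl1, which binds nociceptin rather than classical opioids, was 21.1, 39.1, 19.8, 27.8 and 24.3 CPM in sham and 18.6 to 21.5 CPM after CCI (−0.40 ± 0.19, edgeR adjusted p = 0.355). Its SD was 7.77 CPM in sham and 1.19 CPM after CCI, with sham library 2 the highest. For Oprm1, Oprd1 and Oprk1 a library held 54 to 332 reads, apart from 34 reads of Oprd1 in sham KO-labelled library 1, and for Sstr4 8 to 78 reads.

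Sstr2, the somatostatin receptor targeted by octreotide, was 8.95 to 11.6 CPM in sham and 6.80 to 10.1 CPM in CCI wild-type libraries (−0.30 ± 0.13, edgeR adjusted p = 0.282). Sstr4 was sparse, at 0.185 to 1.05 CPM in sham and 0.269 to 0.567 CPM after CCI (−0.62 ± 0.59, edgeR adjusted p = 0.765), with a 95% interval of −1.78 to 0.54. Npy2r, the Y2 receptor, which like Npy1r binds neuropeptide Y, was 28.6 to 38.9 CPM in sham and 35.4 to 41.3 CPM after CCI, with overlap (0.29 ± 0.20, edgeR adjusted p = 0.617). Cnr1, the receptor for endocannabinoids and tetrahydrocannabinol, was 21.2, 29.8, 29.6, 30.2 and 28.2 CPM in sham and 19.2 to 25.7 CPM after CCI (−0.27 ± 0.13, edgeR adjusted p = 0.348).

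Adora1 was 99.6, 99.6, 116.6, 98.9 and 92.9 CPM in sham and 85.0, 81.0, 101.8, 75.3 and 81.0 CPM in CCI wild-type libraries. In both groups library 3 was highest, and only CCI library 3 lay within the sham range. The difference of −0.26 ± 0.09 did not pass (edgeR adjusted p = 0.124), but it did pass without CCI library 3 (−0.33 ± 0.08, edgeR adjusted p = 0.0140) or without sham KO-labelled library 4 (edgeR adjusted p = 0.0369). It also passed with no low-count filter (edgeR adjusted p = 0.00329), with limma-voom (adjusted p = 0.0342) and with libraries scaled by the sensory neuron markers (−0.37 ± 0.09, edgeR adjusted p = 0.0238). That scaling moved the median of all genes by −0.11, to −0.11, and 2 of the 12 markers it uses, Tubb3 and Stmn2, rose with injury. The gene on the opposite strand, Mybph, shares 52.4% of the exon bases of Adora1, and the library kit kept no strand. Mybph read at most 1.65 CPM in any library. If reads on the shared bases were set aside as ambiguous, neither count holds them. The Mybph count cannot show how many there were, and the Adora1 level would then be too low. Summed peptidergic nociceptor markers (8 genes, 1 called lower) moved beside these differences, from 3556 to 5810 CPM in sham to 3019 to 4215 CPM in CCI wild-type libraries. Summed satellite glia markers (6 genes, 2 called higher) were 4203 to 4602 CPM in sham and 4770 to 5090 CPM in CCI wild-type libraries, with no overlap. Apoe, which was not called, made up most of that sum, at means of 3862 and 4216 CPM, and 6 of 6 markers had log2 changes above 0. The part of either cell type in the receptor differences was not tested.

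**Figure D2:**
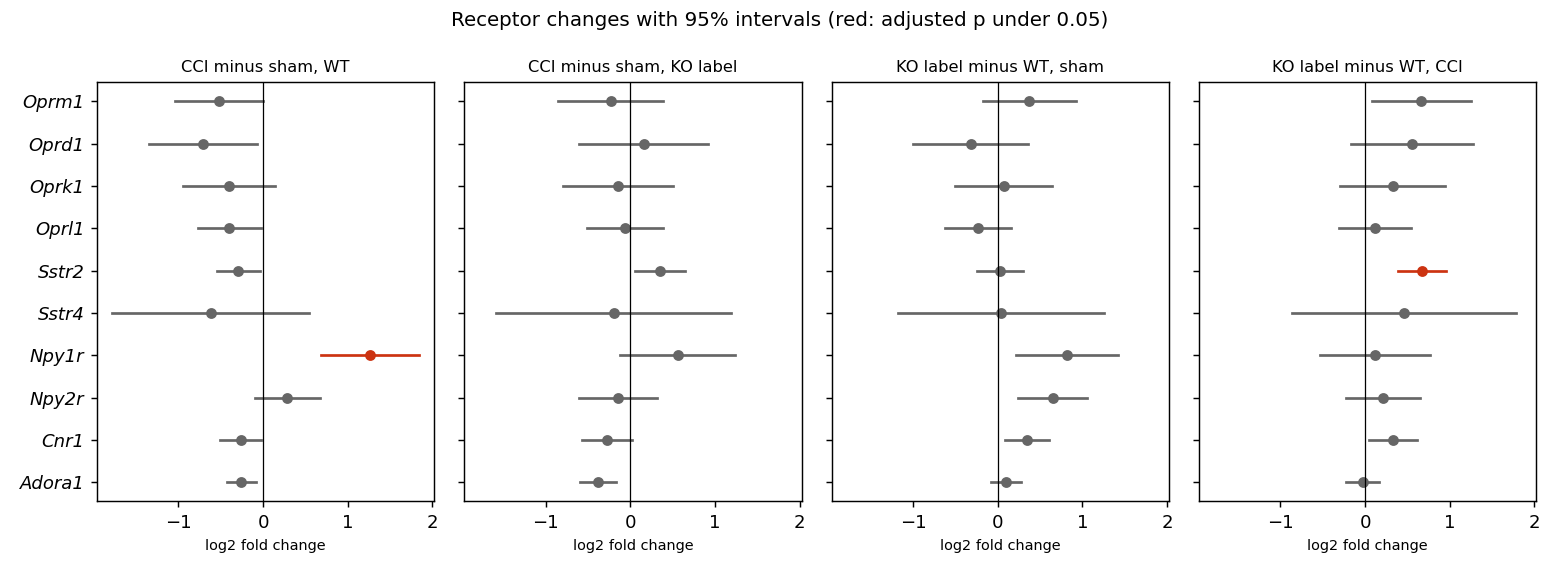
Log2 fold changes (horizontal axis) of the 10 receptors in 4 comparisons, with lines for the 95% interval, red where the edgeR adjusted p was under 0.05. Npy1r is red for injury in wild type and Sstr2 for the genotype label after CCI, and 8 of 10 points lie below 0 in the first panel.

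Injury in the libraries labelled KO (3 CCI against 4 sham) gave a call for 0 of 10 receptors with edgeR, where 0.0834% of all genes were called. At an unadjusted p under 0.05 there were 2, Adora1 and Sstr2, and 8.63% of all genes. DESeq2 called 1, Adora1, as did edgeR with no low-count filter. Adora1 was 109.1, 118.3, 119.5 and 87.1 CPM in sham and 77.3, 83.5 and 88.8 CPM after CCI. Sham library 4 alone lay in the CCI range, and the difference was −0.38 ± 0.11 (edgeR adjusted p = 0.235), or −0.47 ± 0.09 (edgeR adjusted p = 0.0238) without that library. Without sham libraries 1 and 2 it was −0.31 ± 0.13 (edgeR adjusted p = 0.406). Sstr2 was 11.8, 11.8, 7.94 and 10.9 CPM in sham and 12.8, 14.01 and 13.8 CPM after CCI, with no overlap, and was the 1 receptor of which this held, where 4.41% of all genes were higher without overlap. Its difference was 0.35 ± 0.16 (edgeR adjusted p = 0.519), and 0.52 ± 0.19 (edgeR adjusted p = 0.288) without sham libraries 1 and 2.

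Npy1r in KO-labelled sham libraries 1 to 4 was 45.2, 47.0, 12.2 and 24.1 CPM, and 55.2, 33.6 and 53.2 CPM in CCI libraries 2 to 4. Sham libraries 1 and 2, with high Atf3, lay within the CCI range, and libraries 3 and 4 lay below it. The difference was 0.56 ± 0.35 (edgeR adjusted p = 0.725) with all libraries and 1.38 ± 0.29 (edgeR adjusted p = 0.0657) without sham libraries 1 and 2. Npy2r was 66.3, 65.4, 43.9 and 25.6 CPM in sham and 42.6, 48.2 and 45.2 CPM after CCI, so libraries 1 and 2 exceeded every other library of the series. Its difference turned from −0.15 ± 0.24 (edgeR adjusted p = 0.936) to 0.38 ± 0.16 (edgeR adjusted p = 0.440) without them.

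Cnr1 and Oprm1 had the same 2 libraries on top. Cnr1 was 41.7, 43.3, 27.4 and 28.5 CPM in KO-labelled sham libraries and 29.8, 31.2 and 26.4 CPM after CCI, and Oprm1 was 5.62, 3.89, 2.69 and 1.69 CPM in sham and 3.25, 2.74 and 2.89 CPM after CCI. For Cnr1 the injury difference was −0.27 ± 0.15 (edgeR adjusted p = 0.654) and 0.06 ± 0.14 (edgeR adjusted p = 0.942) without the pair. For Oprm1 it was −0.23 ± 0.32 (edgeR adjusted p = 0.919) and 0.44 ± 0.34 (edgeR adjusted p = 0.749) without the pair. In CCI wild-type libraries, where Atf3 was also high, Cnr1 and Oprm1 had means of 23.1 and 1.87 CPM, against 27.8 and 2.68 CPM in sham wild type. Summed peptidergic nociceptor markers were 6391 and 6994 CPM in libraries 1 and 2, above the 3019 to 5810 CPM of all other libraries, and their part was not tested. Oprd1 and Oprl1 went the other way in library 1, which had the lowest value of the series for both, at 0.576 and 16.6 CPM. Library 2 did so only for Oprl1, at 18.0 CPM against 19.8 to 39.1 CPM in sham wild type. Its Oprd1 level of 2.09 CPM lay inside the sham wild-type range of 1.65 to 2.97 CPM.

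**Figure D3:**
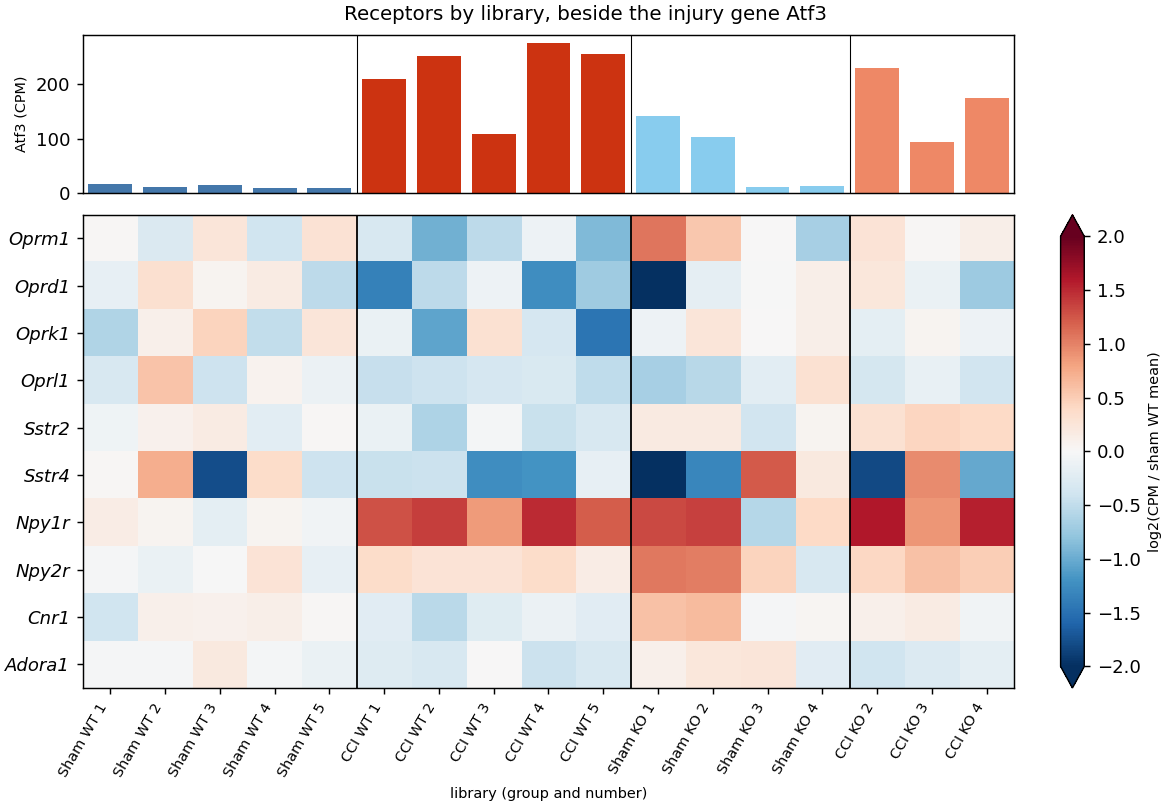
Top, Atf3 in CPM (vertical axis) in each of the 17 libraries, coloured by group. Bottom, each receptor (row) in each library (column) as log2 of its CPM over the sham wild-type mean, from blue (lower) to red (higher), with colours ending at −2 and 2. Npy1r is red in the CCI libraries and in sham KO-labelled libraries 1 and 2, and Npy2r, Cnr1 and Oprm1 are reddest in those same 2 sham libraries.

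The genotype label in sham libraries (4 KO-labelled against 5 wild-type) gave a call for 0 of 10 receptors with edgeR, against 1.0% of all genes, and the groups overlapped for all 10, where 3.21% of all genes did not overlap. At an unadjusted p under 0.05 there were 3, Npy1r, Npy2r and Cnr1, and 11.4% of all genes, and with no low-count filter edgeR called Cnr1. Npy1r differed by 0.82 ± 0.31 (edgeR adjusted p = 0.289), Npy2r by 0.65 ± 0.21 (edgeR adjusted p = 0.186), Cnr1 by 0.34 ± 0.13 (edgeR adjusted p = 0.278) and Oprm1 by 0.38 ± 0.28 (edgeR adjusted p = 0.692). Without sham KO-labelled libraries 1 and 2 these values were 0.01 ± 0.25, 0.12 ± 0.15, 0.01 ± 0.13 and −0.29 ± 0.31. Leaving out a library with low values gave a call: without library 3 Npy1r differed by 1.10 ± 0.21 (edgeR adjusted p = 0.0187), and without library 4 Npy2r differed by 0.87 ± 0.11 (edgeR adjusted p = 0.000288).

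After CCI, the libraries labelled KO (3) had more Sstr2 than wild-type libraries (5). The levels were 12.8, 14.01 and 13.8 CPM against 9.48, 6.80, 10.1, 7.63 and 8.30 CPM, with no overlap between the groups. The KO-labelled libraries also lay above all 9 sham libraries. The difference was 0.68 ± 0.15 on the log2 scale (1.6-fold, edgeR adjusted p = 0.0233). Of the 10 receptors 1 was called, and higher, where 0.684% of all genes were called and 0.184% higher. At an unadjusted p under 0.05 there were 3 receptors and 8.78% of all genes, and 9 of 10 values were above 0, against 48.7% of all genes. It passed too without sham KO-labelled libraries 1 and 2 (0.68 ± 0.14, edgeR adjusted p = 0.0164). It was lost without CCI KO-labelled library 2 (edgeR adjusted p = 0.0597), 3 (0.150) or 4 (0.134), or without CCI wild-type library 2 (0.0713), 4 (0.0683) or 5 (0.0702), and with libraries scaled by the sensory neuron markers (0.0506), while the log2 difference stayed between 0.61 and 0.75.

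Beside this difference, summed Schwann cell markers were 6546 to 8030 CPM in CCI KO-labelled and 11560 to 15700 CPM in CCI wild-type libraries, with 5 of 8 markers called lower. Summed peptidergic nociceptor markers were 4278 to 5677 CPM against 3019 to 4215 CPM, with 0 of 8 called. Summed satellite glia markers were 4158 to 4512 CPM against 4770 to 5090 CPM (1 of 6 called, higher), and summed fibroblast markers 776.7 to 863.8 against 969.2 to 1866 CPM (0 of 5 called). Apoe made up most of the satellite glia sum, at means of 3683 against 4216 CPM, and 2 of the 6 markers had log2 differences above 0. Schwann, peptidergic nociceptor, satellite glia and fibroblast sums did not overlap between these groups, and of these only the peptidergic sum was higher in KO-labelled libraries. Summed skeletal muscle markers (4 genes, 0 called) were 105.4 to 182.9 CPM in CCI KO-labelled and 5.64 to 72.07 CPM in CCI wild-type libraries, also with no overlap. The part of any of these in the Sstr2 difference was not tested.

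Groups did not overlap for 4 receptors after CCI, all higher in KO-labelled libraries (4.15% of all genes), namely Sstr2, Oprm1, Cnr1 and Npy2r. Oprm1 was 2.74 to 3.25 CPM against 1.38 to 2.50 CPM (0.67 ± 0.30, edgeR adjusted p = 0.508), and Cnr1 was 26.4 to 31.2 against 19.2 to 25.7 CPM (0.33 ± 0.14, edgeR adjusted p = 0.485). For Npy2r the levels were 42.6 to 48.2 against 35.4 to 41.3 CPM (0.21 ± 0.22, edgeR adjusted p = 0.914). None of these passed the threshold. Npy1r, the receptor called for injury, differed little by label after CCI (0.12 ± 0.33, 95% interval −0.53 to 0.77, edgeR adjusted p = 0.977).

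The interaction asks whether the injury effect differed by genotype label, and edgeR called 0 receptors and 0 genes, with 1 receptor and 5.87% of genes at an unadjusted p under 0.05. That receptor was Sstr2, whose injury effect was higher in KO-labelled libraries by 0.65 ± 0.20 (edgeR adjusted p = 0.651), or 0.82 (edgeR adjusted p = 0.931) without sham KO-labelled libraries 1 and 2. Oprd1 (0.87 ± 0.51, edgeR adjusted p = 0.896, or 0.50 ± 0.47 without the same 2 libraries) and Npy1r (−0.70 ± 0.46, edgeR adjusted p = 0.919) had larger differences with larger errors. For Npy1r the value without sham KO-labelled libraries 1 and 2 was 0.12 (edgeR adjusted p = 0.997). DESeq2 and limma-voom also called 0 of the 10, and 21 and 4 of all genes.

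Averaged over sham and CCI, the genotype label gave a call for 0 of 10 receptors with edgeR (2.55% of all genes), although 9 of 10 values were above 0, against 49.8% of all genes, and 4 of 10 had an unadjusted p under 0.05, against 13.3%. Closest to the threshold were Sstr2 (0.35 ± 0.10, edgeR adjusted p = 0.0610) and Cnr1 (0.34 ± 0.10, edgeR adjusted p = 0.0741), and both were called by DESeq2 (adjusted p = 0.0167 and 0.0151). Oprm1 (0.52 ± 0.20), Npy1r (0.47 ± 0.23) and Npy2r (0.43 ± 0.15) followed at an edgeR adjusted p of 0.225, 0.399 and 0.199. Without sham KO-labelled libraries 1 and 2 the mean differences were 0.27 ± 0.11 for Sstr2, 0.17 ± 0.08 for Cnr1, 0.19 ± 0.20 for Oprm1, 0.07 ± 0.17 for Npy1r and 0.17 ± 0.10 for Npy2r. In that fit edgeR called 0 of the receptors and 404 of all genes. Values were above 0 for 10 of 10 receptors, and 2 of 10 (Sstr2 and Cnr1) had an unadjusted p under 0.05. The shares of all genes for these 2 counts are given only for the fit with all libraries. Single libraries decided calls here too. Sstr2 passed without sham KO-labelled library 3 (edgeR adjusted p = 0.0126), sham wild-type library 3 (0.0494) or CCI wild-type library 3 (0.0295). Cnr1 passed without sham KO-labelled library 3 (0.0155) or 4 (0.0198), Npy1r without library 3 (0.0445), and Oprm1 (0.0479) and Npy2r (0.000189) without library 4 of that group. Comparisons that share control libraries are not independent of each other.

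The genes whose level ran most like each receptor were ranked by Pearson correlation of log2 CPM over the 17 libraries, among 13542 protein-coding genes with a mean of at least 1 CPM. The libraries share groups and, in part, the high Atf3 pattern, so the values are a description. For Npy1r the closest were Star, a cholesterol carrier of steroid synthesis (r = 0.960), the integrin Itga7 (0.955) and Tmtc4 (0.949), and these remained at 0.928, 0.906 and 0.870 with the group means removed. For Sstr2 they were Scg2, a secretory granule protein (0.877), the protein kinase Prkcb (0.852) and Car8 (0.820), at 0.717, 0.611 and 0.668 with group means removed. Npy2r ran closest to Ash2l (0.925), the glycolytic enzyme Eno1 (0.906) and Rgs17 (0.900), a regulator that switches Gi proteins off. With group means removed these were 0.891, 0.847 and 0.906. The closest to Cnr1 were the prostacyclin receptor Ptgir (0.898), Tmem100 (0.878) and the neurotrophin receptor Ngfr (0.874), and to Adora1 the T-type calcium channel Cacna1h (0.926), the glycolytic enzyme Pfkl (0.925) and Fez1 (0.912). Oprm1 ran closest to Ocrl (0.875), Etnk1 (0.850) and Ptprn2 (0.847), and Oprd1 to Gal3st3 (0.923), 3425401B19Rik (0.871) and Actr3b (0.821). For Oprk1 they were Nim1k (0.791), Insyn1 (0.778) and the GABA-A receptor subunit Gabrg3 (0.768), and for Oprl1 Nxpe3 (0.890), Lrrc49 (0.874) and Ckmt1 (0.872). With group means removed, the values in the same order were 0.839, 0.790 and 0.814 for Cnr1 and 0.850, 0.912 and 0.791 for Adora1. They were 0.811, 0.769 and 0.807 for Oprm1 and 0.900, 0.860 and 0.806 for Oprd1. Oprk1 had 0.734, 0.724 and 0.688, and Oprl1 0.896, 0.840 and 0.838. Sstr4 was below 1 CPM and was not ranked.

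The partners of the receptors in the pathway were followed in 7 lists of 111 genes, 102 of them tested. After injury in wild type 5 rose and 1 fell (5.88% called, against 3.06% of all genes), with a median log2 change of −0.01, the same at this rounding as over all genes. By genotype label in sham 1 was higher and 1 lower of 102 (1.0% of all genes were called), in the mean genotype effect 1 was higher of 102 (2.55% of all genes), and the other 3 comparisons had 0 calls (0 to 0.684% of all genes). Of 8 genes of peptide ligands 6 were tested and 1 rose: Npy, the ligand of Npy1r and Npy2r, from 0.241 ± 0.151 to 99.5 ± 27.6 CPM (8.72 ± 0.97, edgeR adjusted p = 0.000267). Limma-voom gave 8.91 and did not call it (adjusted p = 0.0525). Npy was also among the 9 axon injury markers, all of which rose in this comparison. The other ligands did not pass. Penk, the enkephalin precursor, stood at 12.2 ± 4.54 and 13.6 ± 3.36 CPM, and Sst, the somatostatin gene, at 14.4 ± 2.65 and 10.3 ± 1.95 CPM. The precursors of dynorphin (Pdyn), nociceptin (Pnoc) and endorphin (Pomc) were below 1.2 CPM on average in all 4 groups.

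Of 13 genes that make or break down endocannabinoids and adenosine, 1 rose after injury in wild type, Daglb, which makes 2-arachidonoylglycerol (0.31 ± 0.08, edgeR adjusted p = 0.0228). That call was lost without sham wild-type library 4 or 5 or CCI wild-type library 4 or 5 (edgeR adjusted p = 0.0604 to 0.0828), and at 0.106 with libraries scaled by neuron markers. In sham, Faah, which breaks down anandamide, was lower in KO-labelled libraries, at 31.3 ± 4.77 against 41.3 ± 4.13 CPM (−0.40 ± 0.10, edgeR adjusted p = 0.0429). This call was kept in 2 of 17 fits that left out a library, those without sham KO-labelled library 4 and CCI KO-labelled library 2, and without sham KO-labelled libraries 1 and 2 together the adjusted p was 0.599.

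Of 21 regulators of receptor signalling 1 rose after injury in wild type, Rgs20, which switches Gi family proteins off, from 2.58 ± 0.783 to 6.57 ± 0.694 CPM (1.35 ± 0.28, edgeR adjusted p = 0.0105). It was also called higher in KO-labelled sham libraries, at 7.02 ± 4.00 CPM (1.44 ± 0.30, edgeR adjusted p = 0.0215), though not without libraries 1 and 2 together (0.54, edgeR adjusted p = 0.623), nor without sham KO-labelled library 1 or 2, or sham wild-type library 1 or 4, alone (0.0555 to 0.0918). Rgs14 was higher in the mean genotype effect (0.39 ± 0.10, edgeR adjusted p = 0.0234), but not without sham KO-labelled library 2 (0.0564), CCI KO-labelled library 3 (0.0780), with neuron-marker scaling (0.0789) or without sham KO-labelled libraries 1 and 2 together (0.0556).

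Of 34 genes of other Gi-coupled receptors 29 were tested, and after injury in wild type 2 rose and 1 fell. The nucleotide receptors P2ry14 (from 2.77 ± 0.405 to 5.61 ± 1.83 CPM, 1.02 ± 0.21, edgeR adjusted p = 0.00597, with overlapping libraries) and P2ry12 (0.60 ± 0.15, edgeR adjusted p = 0.0210) rose, and Gabbr2, a subunit of the GABA-B receptor, fell from 150.9 ± 7.30 to 128.7 ± 4.44 CPM (−0.23 ± 0.05, edgeR adjusted p = 0.00619). P2ry12 lost its call without sham wild-type library 2 or 4 or CCI wild-type library 2, 4 or 5 (edgeR adjusted p = 0.0583 to 0.0778) and with neuron-marker scaling (0.0618). Beside these nucleotide receptors, 4 of 8 macrophage markers rose, and their summed level was 51.5 to 84.3 CPM in sham and 61.7 to 131.2 CPM in CCI wild-type libraries. Their part in the result was not tested.

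Of the signalling steps below the receptors, 19 of 20 G protein subunits, 9 of 9 adenylyl cyclases and 5 of 6 effector channels were tested. They had 0 calls in the 6 comparisons, in which 0 to 3.06% of all genes were called, so for lists this short 0 is near the share of all genes. Closest in wild-type injury were Gnao1, the Go alpha subunit (−0.21 ± 0.06, edgeR adjusted p = 0.0642), the cyclase Adcy3 (0.28 ± 0.08, edgeR adjusted p = 0.0662) and the presynaptic calcium channel Cacna1a (−0.22 ± 0.10, edgeR adjusted p = 0.300).

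**Figure D4:**
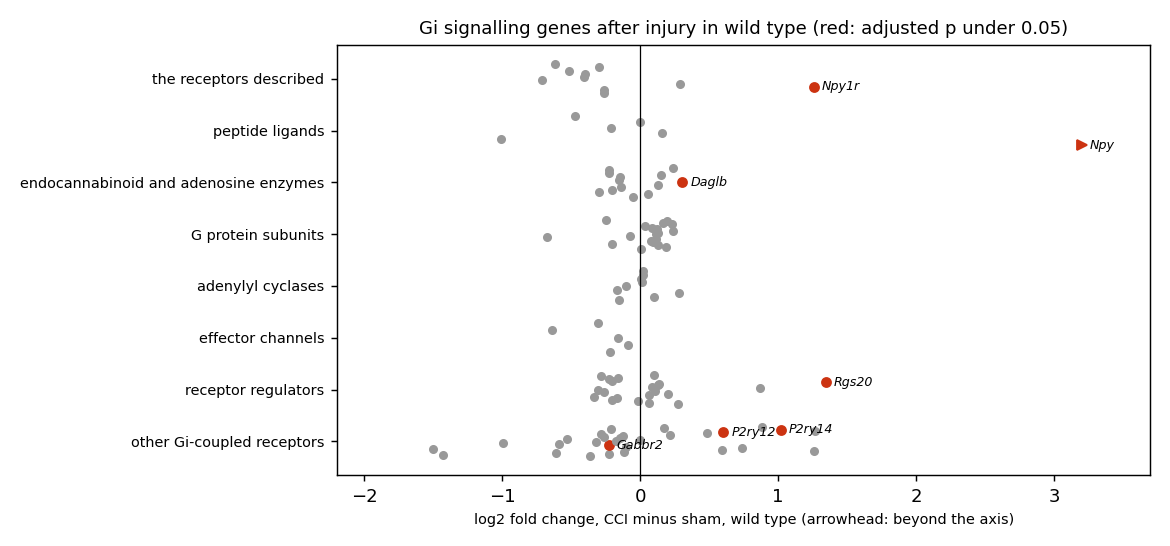
Log2 fold changes after CCI in wild type (horizontal axis) for the 10 receptors (top row) and the tested genes of 7 pathway lists, 1 point per gene, red and named where the edgeR adjusted p was under 0.05. An arrowhead marks Npy at 8.72, beyond the axis, and the red points are Npy1r, Npy, Daglb, Rgs20, P2ry12 and P2ry14 on the right and Gabbr2 on the left.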

How the data were processed

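Per the labels' protocols, a PicoPure kit was used for total RNA and SMART-Seq v4, which keeps no strand, for amplification. The authors used bcl2fastq 2.20.0.422 and STAR 2.7.11a with build GRCm39, per the submitters' processing notes. Each deposited table holds whole-number read counts by Ensembl gene. No source used here names the counter, strand setting or annotation release. Summary lines of the tables were left out (4.04 to 4.55% of reads outside genes, 7.63 to 8.17% ambiguous).

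GENCODE M39 (GRCm39) gave symbols, exon lengths and coordinates for 78168 of 78298 identifiers. Low-count genes were dropped with filterByExpr (groups given, minimum count 10, total 15), and libraries were scaled by TMM (factors 0.983 to 1.03) and genes tested with edgeR 4.0.16's quasi-likelihood F test in R 4.3.3, with a mean per group over all 17 libraries (13 residual degrees of freedom, biological coefficient of variation 0.346), Benjamini-Hochberg adjustment over all tested genes and a threshold of 0.05. SE is the log2 change over the square root of F. The script was tested on simulated data. Alternatives used DESeq2 1.42.0, limma 3.58.1, other scalings and filters, a replicate block and libraries left out. The text names all 10 receptors, up to 4 called genes per pathway list, the 1 of smallest p where a list had 0 calls in all comparisons, the 3 nearest genes in pattern, and Kcnk1, Atf3 and Sprr1a as checks. The ligand genes besides Npy, and the marker genes Tubb3 and Stmn2, were named after their values were seen. The members and lists were chosen with earlier results of these data known.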

Additional observations from a re-analysis of the deposited data

Results flagged for a closer look

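In groups of 4 or 5 libraries, 30 sets of values of a receptor were checked for a library far from the rest, and 2 held one; chance alone gives about 1 in 20. Adora1 was 116.6 CPM in sham wild-type library 3, with a gap to the next library of 0.716 of the group's range (critical value 0.710). Cnr1 was 21.2 CPM in sham wild-type library 1, below the other 4 at 28.2 to 30.2 CPM, with a gap of 0.775 of the range. Summed peptidergic nociceptor markers were highest of the group in library 3 (5810 CPM) and lowest in library 1 (3556 CPM), and their part was not tested.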

How the results depend on the processing

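The number of receptors called for injury in wild type, 1 in the reported fit, was 2 with neuron-marker scaling, no low-count filter, limma-voom or the replicate block, and 0 to 2 with 1 library left out. For injury in KO-labelled libraries it was 0, with 1 under no low-count filter or DESeq2, and 0 to 1 with a library left out. For the label in sham it was 0, with 1 under no low-count filter and 0 to 1 with a library left out. After CCI it was 1, with 0 under neuron-marker scaling or the replicate block and 0 to 1 with a library left out. For the interaction it was 0 throughout. For the mean genotype effect it was 0, with 2 under no low-count filter, DESeq2 or limma-voom, 1 under the stricter filter and 0 to 3 with a library left out.

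Among the log2 values given in the text, signs turned for 5 without sham KO-labelled libraries 1 and 2, an alternative chosen after seeing the data. For injury in KO-labelled libraries Oprm1 became 0.44, Npy2r 0.38 and Cnr1 0.06. For the label in sham Oprm1 became −0.29, and for the interaction Npy1r became 0.12. Receptor values not given in the text were not counted, and Oprl1 in the mean genotype effect also turned, from below to above 0. With 1 library left out, the injury value in KO-labelled libraries ranged from −0.46 to 0.10 for Oprm1 and from −0.37 to 0.011 for Npy2r, above 0 without sham KO-labelled library 1 for both and at 0.00 for Npy2r without library 2.

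No label says that replicate numbers pair libraries. Correlations of same-numbered deviations were −0.013 to 0.118, and 4 of 10, 2 of 6, 3 of 8 and 2 of 6 libraries ran best with their own number. Such values cannot tell whether same-numbered libraries shared an animal, a litter or a day. With the replicate block, 775, 46, 139, 91, 0 and 402 genes were called in the 6 comparisons in the order above, against 733, 20, 240, 164, 0 and 612. Under it Sstr2 after CCI was 0.71 (edgeR adjusted p = 0.0612), Adora1 in wild-type injury −0.26 (0.0462), Faah in sham −0.40 (0.0794) and Rgs14 0.32 (0.130).

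Counts of all genes called moved by over 1.5 times in these fits. Injury in wild type gave 1355 with neuron-marker scaling, 1301 with no filter, 1128 with DESeq2 and 1192 with limma-voom. Injury in KO-labelled libraries gave 6, 224, 123 and 31 in that order, 11 with DESeq2 size factors and 147 without the 2 sham libraries. The sham label gave 372 with neuron-marker scaling, 702 with no filter, 629 with DESeq2 and 37 without the 2 libraries. With no filter, DESeq2 and limma-voom, the label after CCI gave 452, 405 and 439, the interaction 77, 21 and 4, and the mean effect 1112, 1027 and 1074, or 404 without the 2 libraries. Neuron-marker scaling moved the share of calls that were higher from 76.7% to 27.8% for injury in wild type, 17 of 20 to 3 of 6 for injury in KO-labelled libraries, 25.8% to 13.2% in sham, 26.8% to 14.3% after CCI and 27.0% to 8.80% for the mean effect. Of all log2 changes given, 53 calls were lost and 17 gained over the fits with 1 library left out. The cause of these shifts was not tested. Sstr4 had 8 to 78 reads a library, and its CV over libraries was 32.0 to 98.9% in the 4 groups.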
